A study of Mus musculus with 9 samples.

Results

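The genes described here are 10 mouse genes whose products hold back mitogen-activated protein kinase (MAPK) signalling, namely the dual-specificity phosphatases Dusp1, Dusp4, Dusp5, Dusp6 and Dusp8, the Sprouty genes Spry1, Spry2 and Spry4, and the Spred genes Spred1 and Spred2. They were chosen by gene symbol, and all 10 of 10 symbols were found among the 55401 genes of the deposited count table. The table holds RNA-seq of primary neonatal mouse ventricular myocytes (NMVMs), heart muscle cells isolated from wild-type C57BL/6J pups at the age of 1 day. There were 9 libraries of poly(A)-enriched RNA, 3 in each of 3 groups. The control cultures stayed in normal oxygen in DMEM with 10% FBS. The hypoxia cultures were moved to DMEM without glucose or serum and kept for 6 h in a sealed chamber with an AnaeroPack-MIC, which takes up oxygen. The hypoxia + rSRGN cultures had the same medium and the same 6 h in the chamber, with recombinant serglycin (rSRGN), the core protein of a secreted proteoglycan, in the medium. Low oxygen, the loss of glucose and serum, and the move to other medium and a sealed chamber came together. Their shares in a difference from control cannot be told apart. The labels do not give the dose of rSRGN, nor whether the libraries of a group came from separate isolations, so p-values measure the spread between these libraries, which may be technical. Total counts were 21669017 to 22781557 per control library, 16583985 to 18148474 per hypoxia library and 16640239 to 20826701 per hypoxia + rSRGN library.

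As background, growth factor receptors pass their signal through RAS and RAF to the kinase ERK, and ERK in turn switches on genes for proteins that dampen the same route. DUSPs remove the activating phosphates from ERK, p38 or JNK, Sprouty proteins act between the receptor and RAF, and Spred proteins bring neurofibromin to RAS at the membrane. In heart muscle this route is known for its part in growth and in the response to stress, and the transcripts of several of these genes turn over fast, so their level is often read as a record of recent MAPK activity.

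The labelled cell type was checked against marker genes. All 10 cardiomyocyte markers had counts in every library, and their most abundant gene was Myh6, the alpha myosin heavy chain, over all libraries and Tnnt2 in the hypoxia group. Their summed level was 41399.6, 48683 and 51366 CPM (counts scaled to library size with TMM factors) in the control libraries, 5634, 5381 and 3649 CPM in the hypoxia libraries and 7692, 7161 and 7245 CPM in the hypoxia + rSRGN libraries. All 10 were called lower in hypoxia than in control, and 9 of 10 were called higher in hypoxia + rSRGN than in hypoxia (4 to 9 over the alternatives). Fewer cells of a type and less RNA per cell cannot be told apart in such bulk samples. The 9 fibroblast markers, led by Col1a1, also had counts in every library, so the cultures held RNA of other cells too. Their sum was 8818, 10087 and 10414 CPM in control, 20369, 17602 and 19694 CPM in hypoxia and 19373, 19980.1 and 19652 CPM in hypoxia + rSRGN, and 7 of 9 were called higher in hypoxia than in control. With rSRGN against hypoxia 1 of the 9 was called, and it was lower. The 5 smooth muscle and pericyte markers, led by Acta2, summed to 1543, 1708 and 1827 CPM in control, 2104, 2424 and 2306 CPM in hypoxia and 1921, 2029 and 2047 CPM in hypoxia + rSRGN. None of these 5 was called in hypoxia against control by edgeR (0 by DESeq2, 1 higher and 2 lower at edgeR's unadjusted p under 0.05). With rSRGN against hypoxia 1 of 5 was called higher. The sum follows Acta2, and the medians of the 5 were -0.28 in hypoxia against control and 0.49 with rSRGN against hypoxia. The 6 endothelial markers, of which Tek was the most abundant over all libraries and Cdh5 in control, summed to 65.1, 82.1 and 91.1 CPM in control, 51.5, 42.1 and 43.0 CPM in hypoxia and 52.5, 56.2 and 43.0 CPM in hypoxia + rSRGN, with 5 of 6 called lower in hypoxia. The 7 macrophage markers, of which Cd68 was the most abundant over all libraries and Csf1r in both hypoxic groups, summed to 37.7, 46.8 and 47.5 CPM in control, 10.7, 12.3 and 10.9 CPM in hypoxia and 13.5, 15.2 and 11.99 CPM in hypoxia + rSRGN. All 7 were called lower in hypoxia (2 to 7 over the alternatives, some of which filter low genes out), and the counts of C1qa and Adgre1 were 0 in 2 of the 3 hypoxia libraries each. These marker levels moved with the groups in which the DUSP, Sprouty and Spred genes are compared below, and their part in those differences was not tested.

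Single libraries stood apart for the genes described here. Hypoxia replicate 2 had the highest level within its group for 10 of 10 of them, while over all 16762 genes tested it was the highest of its group for 39.2%. In the control group no library was the highest for more than 4 of the 10 genes, and likewise in the hypoxia + rSRGN group. There, however, replicate 1 was the lowest library for 8 of the 10 genes, while over all genes tested it was the lowest for 33.4%. For each of the 10 genes, the value without hypoxia replicate 2 is therefore given in both comparisons that use the hypoxia group.

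The comparison of hypoxia with control asks how the level of these feedback genes differed after the combined loss of oxygen, glucose and serum. The move to other medium and the chamber is part of that difference. All 5 DUSP genes and Spry2 rose, Spry1, Spry4, Spred1 and Spred2 were not called, and none was called lower. To be called, a gene needed a fold change of 1.5 or more and, in edgeR's quasi-likelihood test, a Benjamini-Hochberg adjusted p below 0.05 over all genes tested. By this rule 6 of the 10 genes were higher and 0 were lower, against 26.4% of all 16762 genes tested that were higher and 25.1% that were lower. DESeq2 also called 6 higher and 0 lower. At edgeR's unadjusted p under 0.05 alone 7 were higher and 1 was lower, beside 38.1% and 34.9% of all genes. In either direction 51.6% of all genes were called, so being changed is common here, and 6 of 10 is near that share. With no fold limit, 7 were higher and 1 (Spred1) was lower at a Benjamini-Hochberg adjusted p below 0.05 in edgeR's quasi-likelihood test, beside 36.8% and 34.1% of all genes. Their median log2 fold change was 0.81, beside 0.05 over all genes tested. The levels of the groups did not overlap for 8 of the 10 genes, which is near the 73.0% of all genes with such separation. Without hypoxia replicate 2 the count of called genes was again 6, while with no fold limit all 10 had such an adjusted p, 7 higher and 3 (Spry4, Spred1 and Spred2) lower, beside 34.9% and 33.3% of all genes then tested. There the median log2 fold change over the 10 genes was 0.66.

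**Figure D1:**
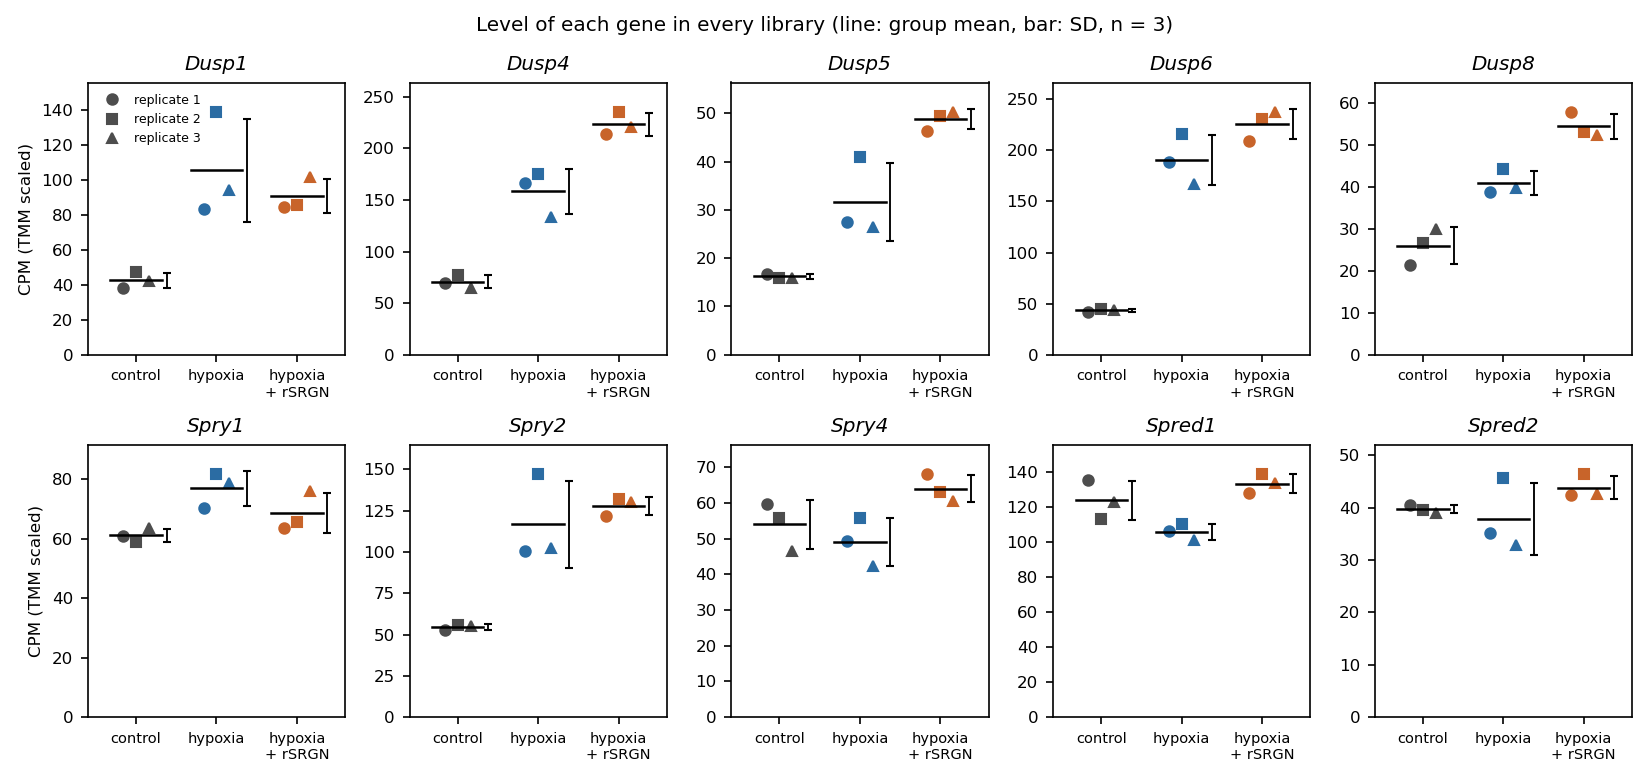
Level of each gene in CPM on the TMM scale (vertical axis, from 0) in the control, hypoxia and hypoxia + rSRGN libraries. Symbols mark the 3 replicates, horizontal lines the group means and bars the SD (n = 3), and for Dusp6 the hypoxic libraries, from 167 CPM upward, lie far above the control libraries, at most 44.6 CPM.

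Dusp1, Dusp4 and Dusp5 encode phosphatases of the nucleus. Dusp1, an immediate early gene whose product acts on p38, JNK and ERK, measured 38.2, 47.1 and 42.1 CPM in the control libraries, 83.3, 139 and 94.3 CPM in the hypoxia libraries and 84.4, 85.7 and 102 CPM in the hypoxia + rSRGN libraries. Every hypoxic library, with or without rSRGN, lay above every control library, while hypoxia and hypoxia + rSRGN overlapped and hypoxia replicate 2 stood far above all others. The log2 fold change of Dusp1 in hypoxia against control was 1.31 ± 0.13 (SE), with a 95% interval of 1.04 to 1.59 (edgeR's quasi-likelihood test, Benjamini-Hochberg adjusted p = 1.15e-08, n = 3 per group), and 1.06 without hypoxia replicate 2. In hypoxia + rSRGN against hypoxia it was -0.22 ± 0.13 (SE) and was not called (edgeR, Benjamini-Hochberg adjusted p = 0.275). Without hypoxia replicate 2 that difference turned to 0.03, so its sign rested on this library. Dusp1 was thus raised in both hypoxic groups, with no direction between them that held in every set of libraries.

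Dusp4 is a relative of Dusp1 whose product acts mainly on ERK and JNK. It measured 70.0, 77.4 and 65.0 CPM in the control libraries, 166, 175 and 134 CPM in the hypoxia libraries and 214, 236 and 221 CPM in the hypoxia + rSRGN libraries. The groups formed a staircase with no overlap at either step, control being the lowest and hypoxia + rSRGN the highest. Dusp4 rose in hypoxia by a log2 fold change of 1.16 ± 0.09 (SE), which is 2.24-fold (edgeR's quasi-likelihood test, Benjamini-Hochberg adjusted p = 1.59e-10). Between the hypoxic groups the log2 fold change was 0.50 ± 0.09 (SE) (edgeR, Benjamini-Hochberg adjusted p = 0.000740), and the gene was not called because 1.41-fold is under the limit of 1.5. Leaving out hypoxia replicate 2 gave 1.08 and 0.58 for these differences, so the step between the hypoxic groups did not depend on that library. With each library left out in turn, that step ranged from 0.39 to 0.58.

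Dusp5 encodes a nuclear phosphatase that is selective for ERK. Its level was 16.8, 15.9 and 15.9 CPM in the control libraries, 27.5, 41.0 and 26.5 CPM in the hypoxia libraries and 46.4, 49.5 and 50.3 CPM in the hypoxia + rSRGN libraries. The control libraries lay within 1 CPM of each other, the hypoxia libraries were spread, and all 3 hypoxia + rSRGN libraries were above all 3 hypoxia libraries. In hypoxia against control Dusp5 rose by 0.96 ± 0.13 (SE) on the log2 scale (edgeR's quasi-likelihood test, Benjamini-Hochberg adjusted p = 7.75e-07), and by 0.73 without hypoxia replicate 2. It was the only one of the 10 genes called with rSRGN against hypoxia, at a log2 fold change of 0.62 ± 0.12 (SE) and a 95% interval of 0.37 to 0.88 (edgeR, Benjamini-Hochberg adjusted p = 0.00157). That fold, 1.54, stands just past the limit of 1.5, and the call was lost without hypoxia replicate 1 (0.53) and without hypoxia replicate 3 (0.51), while without hypoxia replicate 2 the value was 0.86. Dusp5 shares 547 exonic bases with the antisense gene Gm50394, and fragments were counted without regard to strand, so fragments of the shared stretch cannot be told apart. Gm50394 itself was given 35 counts over the 9 libraries, which does not measure its fragments in that stretch.

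Dusp6 encodes the cytoplasmic phosphatase that is selective for ERK, and its transcript is a widely used readout of ERK activity. It measured 41.5, 44.6 and 43.9 CPM in the control libraries, 188, 216 and 167 CPM in the hypoxia libraries and 209, 231 and 238 CPM in the hypoxia + rSRGN libraries. Control and hypoxic libraries were far apart, and the hypoxia and hypoxia + rSRGN libraries overlapped. Dusp6 had the largest rise of the 10 genes in hypoxia, with a log2 fold change of 2.14 ± 0.09 (SE), a 95% interval of 1.95 to 2.32 and a fold of 4.40 (edgeR's quasi-likelihood test, Benjamini-Hochberg adjusted p = 2.56e-15), and the log2 value was 2.03 without hypoxia replicate 2. In hypoxia + rSRGN relative to hypoxia the log2 fold change was 0.25 ± 0.08 (SE) (edgeR, Benjamini-Hochberg adjusted p = 0.0468), under the fold limit and not called, and 0.35 without hypoxia replicate 2 or 0.16 without hypoxia replicate 3.

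Dusp8, whose product acts on JNK and p38, had a smaller range. Its level was 21.3, 26.6 and 30.0 CPM in the control libraries, 38.7, 44.1 and 39.7 CPM in the hypoxia libraries and 57.9, 53.0 and 52.3 CPM in the hypoxia + rSRGN libraries. As with Dusp4, the groups did not overlap at either step and hypoxia + rSRGN was the highest. The rise in hypoxia was 0.65 ± 0.11 (SE) on the log2 scale (edgeR's quasi-likelihood test, Benjamini-Hochberg adjusted p = 1.23e-05), the smallest among the called genes of the 10, and without control replicate 1, the lowest control library, it was 0.51 and not called. The step from hypoxia to hypoxia + rSRGN was on the log2 scale 0.41 ± 0.10 (SE) (edgeR, Benjamini-Hochberg adjusted p = 0.00933), under the fold limit. Without hypoxia replicate 2 the values of Dusp8 were 0.59 and 0.47.

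Of the Sprouty genes, Spry2 was called in hypoxia against control, and Spry1 and Spry4 were not. Spry2 measured 52.9, 55.9 and 55.1 CPM in the control libraries, 100.3, 147 and 103 CPM in the hypoxia libraries and 122, 132 and 130.0 CPM in the hypoxia + rSRGN libraries. All hypoxic libraries lay above all control libraries, and hypoxia replicate 2 was above every hypoxia + rSRGN library while the other 2 hypoxia libraries were below them. Spry2 rose in hypoxia by a log2 fold change of 1.10 ± 0.11 (SE) (edgeR's quasi-likelihood test, Benjamini-Hochberg adjusted p = 5.61e-09), and by 0.89 without hypoxia replicate 2. Between the hypoxic groups it was not called, at 0.13 ± 0.10 (SE) with all libraries (edgeR, Benjamini-Hochberg adjusted p = 0.420). Without hypoxia replicate 2 that value was 0.34 (edgeR, Benjamini-Hochberg adjusted p = 0.00129), still under the fold limit. Without hypoxia replicate 1 or 3 it was 0.0371 or 0.0519, so its size depended on which hypoxia libraries were used.

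Spry1 was at 60.8, 59.0 and 63.5 CPM in the control libraries, 70.4, 81.6 and 78.5 CPM in the hypoxia libraries and 63.6, 65.6 and 76.1 CPM in the hypoxia + rSRGN libraries. The hypoxia libraries lay above the control libraries by a narrow margin, and the hypoxia + rSRGN libraries reached from just above control into the hypoxia range. The log2 fold change in hypoxia against control was 0.33 ± 0.08 (SE), with a 95% interval of 0.16 to 0.50 (edgeR's quasi-likelihood test, Benjamini-Hochberg adjusted p = 0.00126). Its upper bound is below the limit on the log2 scale of 0.58, so a fold of 1.5 lies outside the interval. Between hypoxia + rSRGN and hypoxia the value was -0.17 ± 0.08 (SE) (edgeR, Benjamini-Hochberg adjusted p = 0.186). Leaving out hypoxia replicate 2 gave 0.28 and -0.12 for these differences of Spry1. Spry1 shares 710 exonic bases with Gm42922 on the opposite strand, which was given 54 counts over the 9 libraries. Here too those counts do not measure fragments in the shared stretch.

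Spry4 was at 59.8, 55.8 and 46.4 CPM in the control libraries, 49.3, 55.8 and 42.3 CPM in the hypoxia libraries and 68.0, 63.2 and 60.6 CPM in the hypoxia + rSRGN libraries. Control and hypoxia overlapped over most of their range, and all 3 hypoxia + rSRGN libraries were above all libraries of the other groups. The log2 fold change of Spry4 in hypoxia against control was -0.14 ± 0.10 (SE) (edgeR's quasi-likelihood test, Benjamini-Hochberg adjusted p = 0.232), and -0.24 without hypoxia replicate 2 or -0.04 without hypoxia replicate 3. Its value with rSRGN against hypoxia was 0.38 ± 0.10 (SE) (edgeR, Benjamini-Hochberg adjusted p = 0.0133), under the fold limit, and 0.48 without hypoxia replicate 2. Whether the Sprouty genes differ from each other in their response was not tested.

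The Spred genes were not called in any comparison. Spred1, mutated in a human syndrome of the RAS pathway, measured 136, 113 and 123 CPM in the control libraries, 106, 110.5 and 101 CPM in the hypoxia libraries and 128, 139 and 134 CPM in the hypoxia + rSRGN libraries. The hypoxia libraries were the lowest, below all control libraries and all hypoxia + rSRGN libraries, and the latter overlapped with control. The log2 fold change was -0.23 ± 0.08 (SE) in hypoxia against control, with a 95% interval of -0.38 to -0.07 (edgeR's quasi-likelihood test, Benjamini-Hochberg adjusted p = 0.0118). From hypoxia to hypoxia + rSRGN it was 0.33 ± 0.08 (SE), with a 95% interval of 0.17 to 0.49 (edgeR, Benjamini-Hochberg adjusted p = 0.00485). Both intervals exclude 0 and both exclude the fold limit, so these differences were small. The adjusted p of Spred1 in hypoxia against control (edgeR's quasi-likelihood test, Benjamini-Hochberg) was 0.0640 with library size alone, where the value was -0.16, and 0.0575 without control replicate 1 (-0.18). Leaving out hypoxia replicate 2 gave -0.26 and 0.37.

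Spred2 was at 40.5, 39.5 and 39.0 CPM in the control libraries, 35.2, 45.6 and 32.8 CPM in the hypoxia libraries and 42.5, 46.4 and 42.6 CPM in the hypoxia + rSRGN libraries. The hypoxia libraries spanned the control level, with replicate 2 above and the others below it. The log2 fold change in hypoxia against control was -0.07 ± 0.10 (SE) (edgeR's quasi-likelihood test, Benjamini-Hochberg adjusted p = 0.576), and its sign turned without hypoxia replicate 3 (0.02), while without hypoxia replicate 2 it was -0.22. For hypoxia + rSRGN against hypoxia it was 0.21 ± 0.10 (SE) (edgeR, Benjamini-Hochberg adjusted p = 0.180), and 0.37 without hypoxia replicate 2 or 0.12 without hypoxia replicate 3.

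As far as the labels say, the hypoxia + rSRGN cultures differed from the hypoxia cultures in the added protein alone. Dusp5 was called higher and none of the 10 genes was called lower. This is 1 of 10 genes called, beside 3.13% of all 16762 genes called in either direction, 2.27% higher and 0.859% lower. DESeq2 likewise called 1 higher and 0 lower. At edgeR's unadjusted p under 0.05 alone 6 of the 10 were higher and 0 were lower, beside 15.9% and 13.5% of all genes. These 6 genes, Dusp4, Dusp5, Dusp6, Dusp8, Spry4 and Spred1, also had a Benjamini-Hochberg adjusted p below 0.05 in edgeR's quasi-likelihood test, a limit that 10.5% of all genes passed upward and 6.11% downward when no fold was asked for. For 5 of the 6 the fold limit decided. The median log2 fold change of the 10 genes was 0.29, beside -0.03 over all genes tested. Above 0 were 8 of the 10, beside 7749 of all 16762 genes tested. The groups did not overlap for 5 of the 10 genes, against 32.0% of all genes. Without hypoxia replicate 2 again 1 of the 10 was called and 8 had a Benjamini-Hochberg adjusted p below 0.05 in edgeR's quasi-likelihood test, all higher, beside 11.8% of all genes higher. Without hypoxia replicate 1 none was called, with 6 (5 higher, 1 lower) at such an adjusted p by the same edgeR quasi-likelihood test and Benjamini-Hochberg method, beside 9.57% and 6.00% of all genes. Leaving out hypoxia replicate 3 likewise left none called, with 4 (all higher), beside 6.31% of all genes higher. The lowest count at that adjusted p was 3 (all higher), without hypoxia + rSRGN replicate 1, beside 6.72% of all genes higher. The cardiomyocyte markers, whose sum was higher in the hypoxia + rSRGN libraries than in the hypoxia libraries, moved in the same comparison, and their part was not tested.

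**Figure D2:**
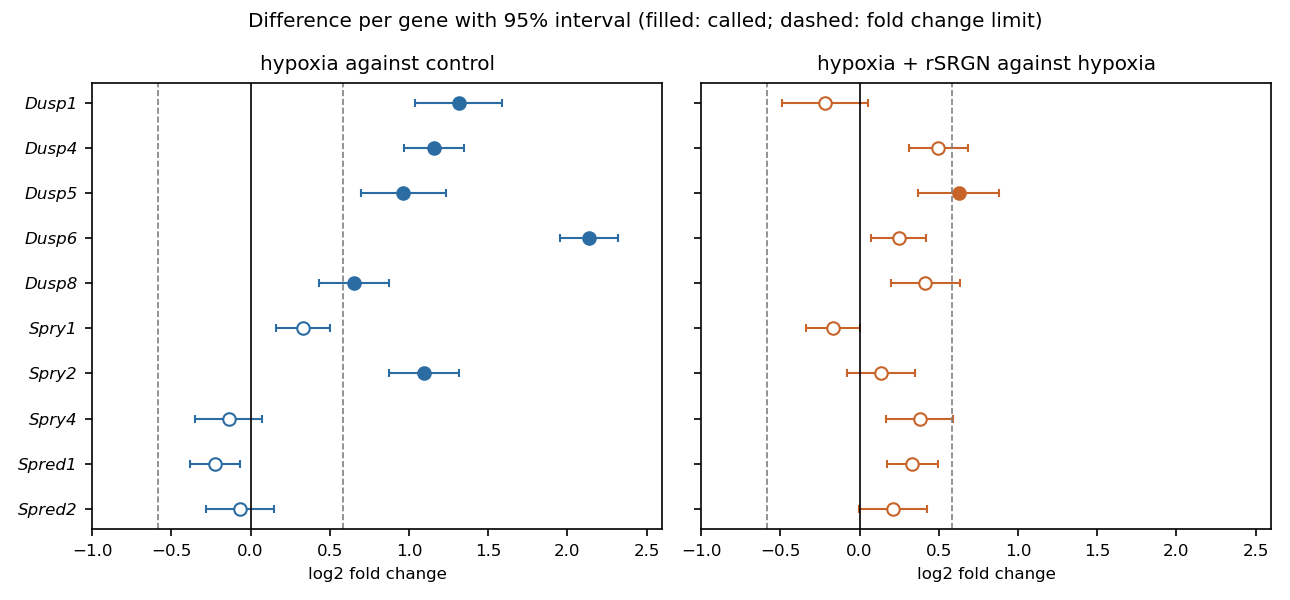
Log2 fold change of each gene (horizontal axis) in hypoxia against control (left) and hypoxia + rSRGN against hypoxia (right). Points are estimates with their 95% intervals (n = 3 per group), filled where the gene was called, and dashed lines mark the fold limit of 1.5, which in the right panel only the estimate of Dusp5 (0.62) passes.

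Between hypoxia + rSRGN and control, the same DUSP genes and Spry2 were called higher, 6 of the 10, and none was called lower. DESeq2 gave the same counts. At edgeR's unadjusted p under 0.05 alone 7 were higher and 0 lower, beside 35.6% and 35.4% of all genes. With no fold limit, 7 were higher and 0 lower at a Benjamini-Hochberg adjusted p below 0.05 in edgeR's quasi-likelihood test. Of all genes, 34.4% were higher and 34.3% lower at that adjusted p. In either direction 68.6% of all genes passed it, and 7 of 10 is near that share. Over all genes tested 48.8% were called, 24.1% higher and 24.7% lower. The median log2 fold change of the 10 genes was 1.08 beside 0.01, and the groups did not overlap for 9 of 10 genes, against 73.3% of all genes. The largest difference was again that of Dusp6, at 2.38 ± 0.09 (SE) on the log2 scale. Dusp4 stood at 1.66 ± 0.09 (SE), Dusp5 at 1.59 ± 0.13 (SE) and Dusp8 at 1.07 ± 0.11 (SE). Dusp1 was at 1.09 ± 0.13 (SE) and Spry2 at 1.23 ± 0.11 (SE). The remaining Spry1, Spry4, Spred1 and Spred2 lay between 0.11 and 0.24. Single libraries moved these small values, Spred1 to 0.0357 without control replicate 2 and 0.169 without control replicate 1, Spry1 to 0.0759 without hypoxia + rSRGN replicate 3 and Spry4 to 0.138 without control replicate 3. This comparison shares its control libraries with hypoxia against control and its rSRGN libraries with hypoxia + rSRGN against hypoxia, so it adds no independent measurement.

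To compare levels between genes, CPM were divided by exon length in kilobases. That length includes the stretches that Spry1 (24.4%) and Dusp5 (22.1%) share with genes on the opposite strand. Fragments there cannot be told apart by strand, so the levels per kb and places of Spry1 and Dusp5 are uncertain. In control, Spry2 (26.2 ± 0.738 CPM per kb, mean ± SD, n = 3) and Dusp4 (25.8 ± 2.28 CPM per kb) were the highest and overlapped with each other. Spry1 (21.0 ± 0.773 CPM per kb) and Spred1 (18.3 ± 1.66 CPM per kb) followed, each apart from its neighbours. Dusp6 (13.8 ± 0.513 CPM per kb), Dusp1 (12.8 ± 1.35 CPM per kb) and Spry4 (11.4 ± 1.44 CPM per kb) came next, and each overlapped with the following one of these. Spred2, Dusp5 and Dusp8 closed the order without overlap, at 8.59 ± 0.164, 6.56 ± 0.207 and 5.33 ± 0.902 CPM per kb. In hypoxia the order was led by Dusp6, Dusp4 and Spry2, at 60.8 ± 7.84, 57.8 ± 7.92 and 55.9 ± 12.6 CPM per kb, which overlapped from neighbour to neighbour. Dusp6 thus moved from the middle of the order to its top. Dusp1 (31.9 ± 8.92 CPM per kb) and Spry1 (26.5 ± 1.99 CPM per kb) followed and overlapped, and from Spred1 (15.6 ± 0.686 CPM per kb) down to Spred2 (8.20 ± 1.48 CPM per kb) every neighbour overlapped with the next. In hypoxia + rSRGN the leading genes separated, with Dusp4 at 81.5 ± 4.05, Dusp6 at 72.1 ± 4.75 and Spry2 at 61.4 ± 2.63 CPM per kb and no overlap between neighbours. Dusp5 (19.7 ± 0.838 CPM per kb) there overlapped with Spred1 (19.7 ± 0.807 CPM per kb), from which it was far apart in control.

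Summed per kilobase, the 5 DUSP genes were at 64.4 ± 3.75 CPM per kb in control, 172 ± 26.1 in hypoxia and 212 ± 9.56 in hypoxia + rSRGN. The 3 Sprouty genes summed to 58.6 ± 0.478, 92.7 ± 15.3 and 98.4 ± 3.41 CPM per kb in the same order. The 2 Spred genes summed to 26.8 ± 1.78, 23.8 ± 2.13 and 29.2 ± 1.25 CPM per kb. The DUSP genes therefore took a larger part of the total in the hypoxic groups, 58.3% to 62.7% per library against 41.2% to 44.9% in control. Within the Sprouty genes the ratio of Spry2 to Spry1 per length was 1.25 ± 0.0627 in control, 2.10 ± 0.360 in hypoxia and 2.62 ± 0.220 in hypoxia + rSRGN, and the hypoxic groups overlapped. The ratio of the cytoplasmic Dusp6 to the nuclear Dusp5, both selective for ERK, was 2.11 ± 0.141 in control, 4.85 ± 0.631 in hypoxia and 3.66 ± 0.0875 in hypoxia + rSRGN, with no overlap between the groups. The ratio of Spred1 to Spred2 was 2.13 ± 0.166, 1.93 ± 0.249 and 2.07 ± 0.0547, and these ranges overlapped. Such ratios within a library do not depend on the scaling between libraries. The levels of Spry1 and Dusp5 in these sums and ratios carry the limit of the shared exonic stretches.

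The other genes of the pathway were taken from lists, each described by its counts and median beside the values over all genes given above. Of 6 further MAPK phosphatase, Sprouty and Spred genes tested, 3 rose and 1 fell in hypoxia (median log2 fold change 0.65). Spred3 rose by 1.24 ± 0.12 (SE) on the log2 scale. Dusp2, a nuclear phosphatase, was called at 1.62 ± 0.55 (SE) from only 4 to 25 counts per hypoxia library, and was not called without hypoxia replicate 2. Dusp7, a cytoplasmic relative of Dusp6, went the other way, at -0.75 ± 0.09 (SE). Only Dusp2 of this list was called with rSRGN against hypoxia, at 1.38 ± 0.44 (SE), and it kept that call in 9 of 15 alternatives. The call was lost with DESeq2, without hypoxia replicate 1 or 3, and without any of the hypoxia + rSRGN replicates.

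Among 18 growth factor ligand genes, 4 rose and 5 fell in hypoxia (median -0.07). The largest rises were those of ligands of the EGF family, Areg at 2.83 ± 0.46 (SE) on the log2 scale, from 2 to 5 counts per control library, and Ereg at 1.67 ± 0.12 (SE). The largest falls were those of fibroblast growth factors, Fgf1 at -3.00 ± 0.10 (SE) and Fgf9 at -1.52 ± 0.26 (SE). The addition of rSRGN came with 4 called ligand genes, all higher (1 to 4 over the alternatives, median 0.34). Ereg, at 135, 174 and 125 CPM in the hypoxia libraries and 269, 301 and 239.8 CPM in the hypoxia + rSRGN libraries, had a log2 fold change of 0.91 ± 0.11 (SE) and was called under every alternative. Tgfa was at 0.68 ± 0.13 (SE) and lost its call without hypoxia replicate 3. Hbegf (0.60 ± 0.13 (SE)) and Fgf2 (0.60 ± 0.10 (SE)) stood at the fold limit, and each kept its call in 12 of 16 alternatives. Hbegf lost it with library size alone and without hypoxia replicate 1, hypoxia replicate 3 or hypoxia + rSRGN replicate 2. Fgf2 lost it with library size alone and without hypoxia replicate 2, hypoxia replicate 3 or hypoxia + rSRGN replicate 2.

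Of 14 receptor genes, 6 rose and 5 fell in hypoxia (median 0.11). Fgfr1 rose by 1.29 ± 0.07 (SE) on the log2 scale. Fgfr4, at 4 to 19 counts per control or hypoxia library, was called at 1.17 ± 0.52 (SE) and kept the call in only 5 of 15 alternatives. It was lost, among others, with DESeq2 and without control replicate 1 or 3, hypoxia replicate 2 or 3, or hypoxia + rSRGN replicate 1 or 3. The receptors of the neuregulins fell, Erbb4 at -3.34 ± 0.16 (SE) and Erbb3 at -2.17 ± 0.22 (SE). With rSRGN against hypoxia 3 receptor genes were called, all higher. Kdr, which is also on the endothelial list, was at 0.93 ± 0.21 (SE) and Met, the receptor of hepatocyte growth factor, at 0.88 ± 0.14 (SE), both called under every alternative. Erbb4 was at 0.66 ± 0.18 (SE) and kept its call in 12 of 16 alternatives, losing it without hypoxia replicate 2 or 3 and without hypoxia + rSRGN replicate 1 or 2.

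Of the 21 genes of the relay from receptor to ERK, 1 rose and 7 fell in hypoxia (median -0.21). The gene that rose was Mapk3, which encodes an ERK, at 0.59 ± 0.08 (SE) on the log2 scale, just past the limit, with the call kept in 6 of 16 alternatives. It was lost, among others, with DESeq2 and without control replicate 1 or 3, hypoxia replicate 2 or 3, or hypoxia + rSRGN replicate 3. The largest falls were those of the adaptor gene Gab1 (-1.78 ± 0.08 (SE)) and the ubiquitin ligase gene Cbl (-1.10 ± 0.10 (SE)). Cbl, whose product binds Sprouty proteins, was also the only relay gene called with rSRGN against hypoxia, higher by 0.63 ± 0.10 (SE), and lost that call without hypoxia replicate 3 or hypoxia + rSRGN replicate 2. Of the 12 genes of the p38 and JNK relay, 2 rose and 6 fell in hypoxia (median -0.40). Mapk13, a p38 gene at a low level, rose by 1.40 ± 0.24 (SE) and Map2k3, an activator of p38, by 1.05 ± 0.08 (SE). Mapk10, which encodes a JNK, was at -3.19 ± 0.25 (SE) and Map3k5 at -1.55 ± 0.12 (SE). With rSRGN against hypoxia 0 of these 12 were called by edgeR and 0 by DESeq2, with 2 at edgeR's unadjusted p under 0.05.

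Genes that ERK is known to switch on mostly rose, while the activity of the kinase itself was not measured. Of 16 such genes 12 rose and 2 fell in hypoxia, with a median log2 fold change of 2.29, and these counts were 12 and 2 under every other tool, scaling, filter and set of libraries. Fosb was at 1.80, 1.90 and 0.966 CPM in the control libraries and 50.6, 146 and 77.8 CPM in the hypoxia libraries, a log2 fold change of 5.86 ± 0.32 (SE). Hypoxia replicate 2 was again the highest library of its group for this gene. Egr3 rose by 4.29 ± 0.26 (SE). The genes that fell were the ETS factor genes Etv1 (-1.23 ± 0.09 (SE)) and Etv5 (-0.72 ± 0.09 (SE)), while their relative Etv4 was called higher (1.00 ± 0.11 (SE)). With rSRGN against hypoxia 2 of the 16 were called, both higher (1 to 5 over the alternatives). Errfi1, which encodes a feedback inhibitor of the EGF receptor, was at 86.1, 163 and 92.8 CPM in the hypoxia libraries and 190.4, 209 and 216 CPM in the hypoxia + rSRGN libraries (log2 fold change 0.85 ± 0.15 (SE)). Egr3 was at 0.83 ± 0.19 (SE), with 0.62 to 1.33 over the alternatives, and was not called by DESeq2. Its level was 37.5, 80.3 and 34.1 CPM in the hypoxia libraries, so replicate 2 stood apart here too. The median of the list in this comparison was 0.18.

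The labelled hypoxia was set beside 12 genes known to be raised by low oxygen. Of these only 3 rose, while 7 fell (median -0.66), with 5 to 8 falls over the alternatives. The falls of Slc2a1 and Pgk1 were not called without control replicate 3, nor was that of Pgk1 without hypoxia replicate 3 or with library size alone. The control libraries differed among themselves, Bnip3 being at 29.7, 50.03 and 77.1 CPM and Egln3 at 10.1, 22.4 and 49.8 CPM in them. Ndrg1 rose by 1.48 ± 0.11 (SE) and Adm, which encodes adrenomedullin, by 1.39 ± 0.12 (SE). Pdk1, which encodes a kinase that curbs pyruvate oxidation, was at -3.06 ± 0.12 (SE) and Ankrd37 at -2.96 ± 0.60 (SE), the latter from 2 to 5 counts per hypoxia library. With rSRGN against hypoxia 0 of the 12 were called by edgeR and 0 by DESeq2, with 5 at edgeR's unadjusted p under 0.05. Over the alternatives 0 to 1 of the 12 were called lower and 0 higher.

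For Dusp6, Spry2 and Spred1, the genes with the most similar pattern were looked up by Pearson's r of log2 CPM over the 9 libraries, among 14257 genes with a mean of at least 1 CPM. The libraries share their groups, so r mostly follows the differences between groups and is given as a description. For Dusp6 the nearest were Cdr2 (0.999), Krt19 (0.999), Ptx3 (0.998), and 1575 genes reached r of 0.95. Spry2 was nearest to Medag (0.998), Lor (0.998), Nr4a1 (0.995), with 844 genes at 0.95. Nr4a1 in that set is an immediate early gene. For Spred1 the nearest were Nek7 (0.95), Tgfbr1 (0.942), Naa50 (0.941), and 0 of the other genes reached 0.95 before rounding. These counts are not compared between genes, because for a gene with small group differences, such as Spred1, r is limited by the spread between libraries.

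The genes lie on 10 different chromosomes, so none are neighbours. In the annotation of the deposited table (GRCm38), Dusp1 spans chr17:26505590-26562128 on the minus strand, Dusp4 chr8:34807297-34819894 on the plus strand and Dusp5 chr19:53529109-53542431 on the plus strand. Dusp6 spans chr10:99263231-99267489 on the plus strand and Dusp8 chr7:142079490-142095843 on the minus strand. Spry1 spans chr3:37639947-37644598 on the plus strand, Spry2 chr14:105891947-105896819 on the minus strand and Spry4 chr18:38586247-38601415 on the minus strand. Spred1 spans chr2:117121374-117182279 and Spred2 chr11:19924375-20024026, both on the plus strand. Apart from the overlaps of Dusp5 and Spry1, Dusp8 shares 66 exonic bases with Gm32786 and Dusp1 shares 11 with Ergic1, in each case on the opposite strand.

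Promoter windows of 300 bases, from 250 bases before to 50 bases after the annotated start, were available from RefSeq (GRCm38.p6) for 8 of the 10 genes, Dusp4 and Spry4 not being among them. Both strands were searched for letters that known factors bind, and each share is set beside the share of all 32851 windows of the table and, after it, of the 14933 windows of genes tested. The full cAMP response element (CRE, TGACGTCA) was present in 2 of 8 windows, those of Dusp1 and Dusp8, against 1.79% of all windows and 2.83% of those of genes tested. Its core TGACG, which is contained in the full element, was present in 4 of 8, those of Dusp1, Dusp5, Dusp8 and Spred2, against 20.8% and 29.0%. The CArG box, bound by serum response factor, was present in 1 of 8 windows, that of Dusp5, against 1.63% and 1.33%, and that window holds 2 of them side by side. The letters ACGTG of the hypoxia response element were present in 3 of 8 windows, those of Dusp1, Dusp5 and Spred1, against 19.6% and 24.5%, and in Dusp5 they overlap with the CRE core. The ETS letters CCGGAA were present in 1 of 8, that of Spry2, against 14.9% and 24.8%. The AP-1 letters TGANTCA (7.81% and 5.40%) and the heat shock element GAANNTTC (7.86% and 5.80%) were present in 0 of 8. A match describes the letters only, and binding was not measured.

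The windows of Dusp1, Dusp5 and Dusp8 are shown because these called genes carry the full CRE or the CArG boxes. Each is printed 5′ to 3′ in the direction of the gene, with CRE cores, full CREs and CArG boxes in capitals, and ends at the base before the gene's start in RefSeq or, where the deposited annotation has an exon there, before that exon. The sequence of Dusp1 is chr17:26508520-26508722 on the minus strand (GRCm38.p6) and lies within an intron of its longest annotated model. Its full CRE is at chr17:26508608-26508615. The sequence of Dusp5 is chr19:53528895-53529108 on the plus strand (GRCm38.p6), outside the gene, and lies within an exon of the antisense gene Gm50394. Its CArG boxes are at chr19:53529063-53529072 and chr19:53529073-53529082. The sequence of Dusp8 is chr7:142095285-142095534 on the minus strand (GRCm38.p6), within an intron of its longest annotated model, and its full CREs are at chr7:142095384-142095391 and chr7:142095340-142095347.
Dusp1: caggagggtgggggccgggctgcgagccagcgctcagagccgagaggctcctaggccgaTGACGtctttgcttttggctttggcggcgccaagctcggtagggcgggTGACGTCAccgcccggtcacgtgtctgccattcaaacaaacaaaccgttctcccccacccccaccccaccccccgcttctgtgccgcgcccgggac
Dusp5: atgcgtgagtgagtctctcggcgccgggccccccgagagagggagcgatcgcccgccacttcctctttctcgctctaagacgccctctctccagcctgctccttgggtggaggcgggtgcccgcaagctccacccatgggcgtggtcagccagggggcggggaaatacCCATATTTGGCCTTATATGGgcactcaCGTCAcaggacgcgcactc
Dusp8: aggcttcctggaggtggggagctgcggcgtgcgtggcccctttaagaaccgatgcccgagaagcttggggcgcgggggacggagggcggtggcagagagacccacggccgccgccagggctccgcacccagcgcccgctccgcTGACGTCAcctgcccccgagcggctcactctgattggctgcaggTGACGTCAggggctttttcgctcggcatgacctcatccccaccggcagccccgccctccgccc
The capitals in the Dusp1 sequence are a core followed by the full CRE. In Dusp5 the run of capitals is the pair of CArG boxes, with a core on the opposite strand after it, and in Dusp8 both capital stretches are full CREs. The other called genes with a window, Dusp6 and Spry2, have neither a CRE core nor a CArG box in it, so these letters are not shared by all the genes that rose in hypoxia.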

How the data were processed

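Counts per gene of 9 RNA-seq libraries, deposited by the authors as whole numbers, were analysed. Their file was made with featureCounts 2.0.1 over exons of GENCODE M25, with fragments counted from paired ends and no strand option, and the submitters' processing notes name HISAT2 and mm10. All 9 count columns were used and 0 were left unused. The labels do not say that libraries came from separate cultures.

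Genes were filtered with filterByExpr (16762 of 55401 kept), scaled by TMM and fitted over all 9 libraries in R 4.3.3 with edgeR 4.0.16. The steps were tested on simulated data in which few genes changed, equally in both directions. Many more genes differed between hypoxia and control, so the simulation does not test the scaling there. Alternatives were DESeq2 1.42.0, other scalings, filters and thresholds, a fit of only the groups compared, a replicate block and each library left out.

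The members and lists were chosen with earlier results of these data known. All 10 members are named. From each pathway list, called genes are named, in hypoxia against control up to 2 rises and up to 2 falls by size, with rSRGN against hypoxia all. Etv4, Slc2a1, Pgk1, Bnip3 and Egln3 were added after seeing their values. Levels per kb use the table's exon length, and likeness a prior count of 2.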

Additional observations from a re-analysis of the deposited data

How the results depend on the processing

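Of 480 values of the log2 fold changes of the 10 genes under an alternative, 475 kept both their direction and whether the gene was called. Spred2 in hypoxia against control reversed to 0.0244 without hypoxia replicate 3, and Dusp1 in hypoxia + rSRGN against hypoxia to 0.0321 without hypoxia replicate 2. With each library left out they ranged from -0.22 to 0.0244 and from -0.36 to 0.0321. The other 3 values lost a call, Dusp8 in hypoxia against control (0.51 without control replicate 1) and Dusp5 in hypoxia + rSRGN against hypoxia (0.53 and 0.51 without hypoxia replicate 1 and 3). The cause was not tested. At the adjusted p alone, 7 to 10 of the 10 genes passed in hypoxia against control (8 in the main fit), 3 to 8 in hypoxia + rSRGN against hypoxia (6) and 6 to 8 against control (7). The number of the 10 genes called in hypoxia + rSRGN against hypoxia was 1, became 6 with no fold change limit and was 0 to 1 with each library left out. With each library left out it was 5 to 6 in hypoxia against control and stayed at 6 in hypoxia + rSRGN against control. Over all genes tested, 525 calls in hypoxia + rSRGN against hypoxia became 899 with the unadjusted p, 2790 with no fold change limit and 321 without hypoxia replicate 3. Replicate numbers did not pair the libraries (correlations of deviations of -0.0697 to 0.0627 between libraries with the same number), and with the number as a replicate block 6 of the 10 genes and 8550 genes in all were called between hypoxia and control. The replicate block gave 1 and 495 for hypoxia + rSRGN against hypoxia, and 6 and 8096 against control. For the genes named from the lists by the rule the same alternatives were run, a choice made after seeing the data. All 26 values in hypoxia against control and all 11 with rSRGN against hypoxia kept their sign, while 23 and 4 of them kept their call under every alternative in which the gene was tested.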
